A study of Mus musculus with 60 samples.

Results

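The serotonin receptor genes Htr1a, Htr1b, Htr1f, Htr2a, Htr2c, Htr3a, Htr4, Htr5a, Htr6 and Htr7 were followed in the prefrontal cortex of young mice. All 10 were taken by name from a table of 18088 genes, and all 10 passed the filter on low values. RNA was sequenced from 60 mice of the C57BL/6J strain at postnatal day 25, 1 library per mouse, in 12 groups of 5. The genotypes were wild type (WT) and Chd8+/N2373K (Het), which carry 1 mutant copy of the chromatin remodeler gene Chd8 in all cells. Mice of each genotype and sex received vehicle, fluoxetine, a selective serotonin reuptake inhibitor, or lithium, a mood stabilizer. The drugs reached the pups through their mothers' milk from postnatal day 3 to 24, so the dose per pup is not known here. The labels name no litters, and pups of a group can share a mother. The p-values therefore measure only the spread between these libraries.

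Serotonin released in the cortex by fibers from the brainstem acts on several families of receptors. The Htr1 and Htr5 families signal through inhibitory Gi proteins and lower cyclic AMP, the Htr2 family signals through Gq proteins and phospholipase C, and Htr4, Htr6 and Htr7 signal through Gs proteins and raise cyclic AMP. Htr3a encodes a subunit of an ion channel that serotonin opens directly. Fluoxetine blocks the serotonin transporter and so prolongs the action of serotonin on these receptors.

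Libraries held 24.05 to 31.65 M reads, with a median of 28.32 M. Values are normalized counts, which are reads divided by 1 size factor per library. Chd8 served as a check of the genotype labels and stood at 2421 to 3072 in the 30 Het libraries and at 2951 to 3285 in the 30 WT libraries. All 9 markers of cortical excitatory neurons were present in every library. They ran from Foxp2 at 128.2 to 730.5 up to the glutamate transporter Slc17a7 at 34169 to 54206. Markers of neighboring tissue also varied between libraries. The summed level ran from 5758 to 29450 for 10 striatal markers, from 3348 to 41798 for 13 olfactory bulb markers and from 115.2 to 15889 for 8 choroid plexus markers. The olfactory bulb markers Tbx21, Eomes and Igfbpl1 and the choroid plexus markers Ttr and Otx2 were at 0 in at least 1 library. In whole tissue, fewer cells of a type and less RNA per cell cannot be told apart.

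Htr2a, the Gq-coupled receptor of cortical pyramidal neurons on which classic hallucinogens act, had the highest level. Levels of different genes were compared per kilobase of exon, in the 10 WT vehicle libraries. Htr2a stood at 303.2 ± 24.61 normalized counts per kilobase (SD, n = 10), and its lowest library at 269.9 lay above the highest library of every other receptor gene. Htr2c, the other Gq-coupled member, followed at 154.5 ± 29.87. The Gi-coupled autoreceptor gene Htr1a stood at 134.1 ± 12.33 and Htr5a at 132.5 ± 10.04 (SD, n = 10 each). Htr2c, Htr1a and Htr5a overlapped in range, so their order is not separated by the spread between libraries.

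The channel subunit gene Htr3a stood at 94.39 ± 11.92 per kilobase, and Htr1b, the receptor of axon terminals, at 70.8 ± 8.792 (SD, n = 10 each). Htr7, a Gs-coupled receptor, stood at 55.07 ± 10.61, Htr1f, a Gi-coupled receptor, at 42.94 ± 10.25, and Htr6, a Gs-coupled receptor, at 39.09 ± 7.366. Each of these genes overlapped its neighbors in the order. Htr4, the remaining Gs-coupled member, was lowest at 4.453 ± 1.869, with its highest library at 7.716 below the lowest Htr6 library at 26.8. By the deposited value, which is not divided by length, Htr5a stood above Htr1a and Htr1b above Htr3a. The longest exon model among the 10 was that of Htr2c at 9.33 kb and the shortest that of Htr3a at 2.08 kb, so this order depends on the annotation used for length.

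**Figure D1:**
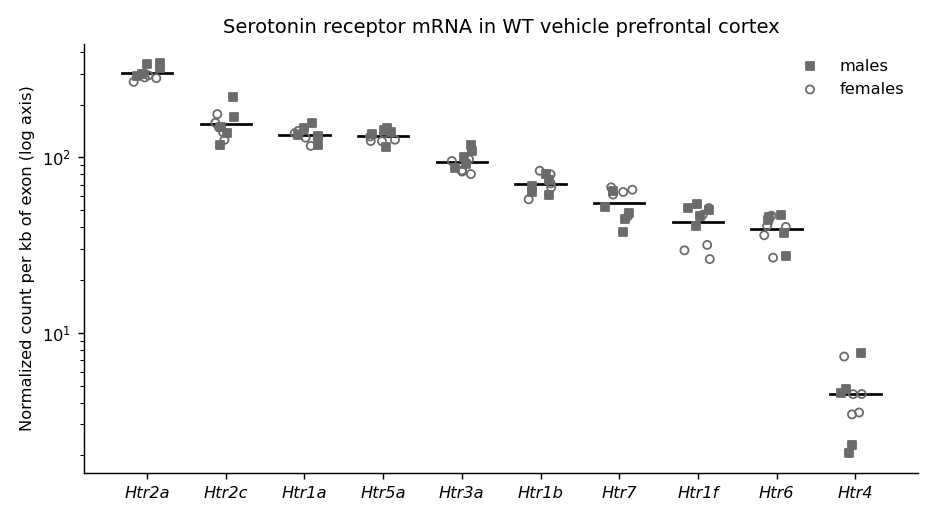
Normalized count per kilobase of exon on a log axis for the 10 serotonin receptor genes in the 10 WT vehicle libraries. Squares are males, circles are females and bars are means. Htr2a at 303.2 and Htr4 at 4.453 stand apart from the other genes, which overlap their neighbors.

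The promoter windows of genes called over both sexes under a drug are shown so that pairs of genes with similar changes can be compared by sequence. RefSeq windows on GRCm38.p6, from 250 bases before to 50 bases after the start, were searched for 8 of the 10 genes. Htr3a had no window, and Htr4 was not included in the search. Those of Htr2a and Htr1a, the pair that was higher with fluoxetine in both genotypes, and of Htr6 and Htr5a, the pair that was higher with lithium in Het mice, are printed 5′ to 3′ on the strand of the gene. They lie at chr14:74640624-74640923 on the plus strand, chr13:105443443-105443742 on the plus strand, chr4:139075521-139075820 on the minus strand and chr5:27841697-27841996 on the plus strand.
Htr2a: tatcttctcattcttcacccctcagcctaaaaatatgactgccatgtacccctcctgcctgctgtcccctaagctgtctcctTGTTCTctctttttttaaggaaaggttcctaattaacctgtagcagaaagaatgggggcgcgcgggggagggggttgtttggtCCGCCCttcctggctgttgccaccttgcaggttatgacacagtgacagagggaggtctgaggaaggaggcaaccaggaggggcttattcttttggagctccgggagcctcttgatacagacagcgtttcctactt
Htr1a: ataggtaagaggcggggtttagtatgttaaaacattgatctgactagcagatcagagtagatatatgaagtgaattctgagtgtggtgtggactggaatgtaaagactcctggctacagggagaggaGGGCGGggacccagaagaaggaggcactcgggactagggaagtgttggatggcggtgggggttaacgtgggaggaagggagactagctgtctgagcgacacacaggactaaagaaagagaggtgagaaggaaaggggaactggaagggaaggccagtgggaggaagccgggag
Htr6: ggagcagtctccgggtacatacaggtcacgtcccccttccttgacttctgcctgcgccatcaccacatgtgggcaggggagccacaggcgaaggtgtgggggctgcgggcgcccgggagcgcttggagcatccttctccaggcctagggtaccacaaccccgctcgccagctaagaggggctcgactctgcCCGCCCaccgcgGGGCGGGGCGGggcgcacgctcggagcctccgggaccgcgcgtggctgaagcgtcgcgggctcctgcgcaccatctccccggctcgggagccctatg
Htr5a: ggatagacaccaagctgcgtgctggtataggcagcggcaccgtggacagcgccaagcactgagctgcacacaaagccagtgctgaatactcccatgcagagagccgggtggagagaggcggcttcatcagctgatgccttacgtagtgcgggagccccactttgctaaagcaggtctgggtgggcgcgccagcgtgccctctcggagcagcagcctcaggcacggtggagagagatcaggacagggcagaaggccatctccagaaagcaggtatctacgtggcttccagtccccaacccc
Capitals mark matches, on either strand, to 7 motifs that were searched. These were the cyclic AMP response element TGACGTCA, the AP-1 site TGANTCA, the EGR site GCGNGGGCG, the GC box GGGCGG, the CCAAT box, the TATA box TATAAA and the glucocorticoid receptor half-site AGAACA. Htr2a held 1 GC box, with its first base at -85 from the start, and 1 glucocorticoid half-site at -168. Htr1a held 1 GC box at -123. The Htr6 window printed here held 3 GC boxes at -59, -47 and -42, the last pair sharing 1 base. RefSeq gives Htr6 a second window, at chr4:139074740-139075039 on the minus strand, which held none of the 7 motifs. None of the 7 motifs was found in the Htr5a window. Among all 32851 RefSeq windows, 35.7% held a GC box, 19.0% the glucocorticoid half-site, 1.8% the cyclic AMP response element and 7.8% the AP-1 site. The EGR site was in 5.6%, the CCAAT box in 37.4% and the TATA box in 13.6%. A match describes letters in a window and is not a measured binding site. Htr2a and Htr1a thus shared a GC box, a motif present in 35.7% of windows, and Htr6 and Htr5a shared none of the 7. The GC box was also in windows of Htr6 and Htr1f. Htr5a, which held none of the 7, was also called higher with fluoxetine in Het mice.

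Fluoxetine was compared with vehicle first, within each genotype. Htr2a and Htr1a rose in both genotypes, by 20.6% to 28.5%, and no call was in the lower direction. In WT mice 2 of 10 genes rose, against 8.20% of all 17807 genes tested that were called in either direction and 3.14% called higher. In Het mice 3 of 10 rose, against 32.9% called in either direction and 16.9% called higher, so the share of receptor genes called in Het mice was close to that of all genes. A gene was called where its adjusted p was under 0.05 (limma, Benjamini-Hochberg over all genes tested). The median log2 fold change of the 10 genes was 0.13 in WT and 0.24 in Het mice, beside 0.00 and 0.01 over all genes.

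Htr2a stood at 1908, 1814, 1640, 1926 and 1670 normalized counts in the 5 WT vehicle males and at 2154, 2141, 1838, 2099 and 2015 in the 5 WT fluoxetine males. WT vehicle females stood at 1603, 1589, 1690, 1647 and 1513, and WT fluoxetine females at 1903, 2003, 2040, 2398 and 1913. The female groups did not overlap, while 1 fluoxetine male lay within the range of the vehicle males. The average over both sexes was higher by 20.6% (log2 fold change 0.27 ± 0.05 SE, limma adjusted p = 4.56e-04), in 10 of 10 fluoxetine libraries against the mean of vehicle mice of their sex. Within males the change was 0.19 ± 0.08 (adjusted p = 0.258), and within females 0.35 ± 0.08 (adjusted p = 0.00547). Htr2a was the 1 of 10 genes called in WT females and 0 of 10 were called in WT males (limma), beside 2.50% and 1.34% of all genes, and at an unadjusted p under 0.05 the male count was 3, beside 11.1% of all genes. Among all genes 5.63% did not overlap between the 2 female groups. The female call was lost without the 15 libraries highest in olfactory bulb markers (0.33, adjusted p = 0.102) or in striatal markers (0.32, adjusted p = 0.142).

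In Het mice Htr2a stood at 1748, 1818, 1662, 1715 and 1796 in vehicle males and at 2426, 2559, 2058, 2140 and 2401 in fluoxetine males. Het vehicle females stood at 1899, 1793, 1671, 1526 and 1810, and Het fluoxetine females at 2009, 1918, 2320, 2289 and 2343. Every fluoxetine library lay above every vehicle library, which was so for 0.972% of all genes over both sexes. The average over both sexes was higher by 28.5% (0.36 ± 0.05, limma adjusted p = 1.04e-06). Within males it was 0.40 ± 0.08 (adjusted p = 1.99e-04) and within females 0.32 ± 0.08 (adjusted p = 0.00276), with 7.22% and 6.86% of all genes not overlapping in those comparisons. In Het males 1 of 10 genes was called and in Het females 3 of 10, beside 22.7% and 15.1% of all genes. The call in males was lost without the 15 libraries highest in olfactory bulb markers (0.40, adjusted p = 0.0647), and that in females without the 15 highest in striatal markers (0.21, adjusted p = 0.243). The change in Het minus that in WT mice was 0.09 ± 0.08 (adjusted p = 0.499, 95% interval -0.06 to 0.24), so no difference between genotypes was called and one of up to 0.24 is within the interval. The calls over both sexes held under all 14 alternatives and without any 1 of the 20 libraries in each.

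Htr1a, which acts both as the autoreceptor of serotonin neurons and as an inhibitory receptor of cortical neurons, stood at 702.7, 604.2, 656.5, 594.8 and 529.1 normalized counts in WT vehicle males and at 711.9, 748.0, 618.4, 801.5 and 720.1 in WT fluoxetine males. WT vehicle females stood at 521.5, 580.8, 634.5, 616.2 and 572.9, and WT fluoxetine females at 754.7, 731.4, 847.7, 690.0 and 670.0. The female groups did not overlap, which was so for 5.63% of all genes, and the male groups overlapped. Over both sexes Htr1a was higher by 21.3% (0.28 ± 0.09, limma adjusted p = 0.0415), in 10 of 10 libraries. This call was lost under 4 of 14 alternatives, and it held only on leaving out WT fluoxetine male replicate 3, fluoxetine female replicate 4 or 5, vehicle male replicate 1 or 3, or vehicle female replicate 3. Without any 1 of the other 14 libraries the log2 fold change was 0.25 to 0.29 and the adjusted p was 0.0508 to 0.0847.

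Het vehicle males stood at 393.9, 562.2, 582.8, 642.6 and 613.6 for Htr1a and Het fluoxetine males at 750.4, 992.1, 512.0, 549.7 and 696.2. Het vehicle females stood at 602.7, 624.3, 431.4, 455.7 and 488.0, and Het fluoxetine females at 633.4, 614.7, 753.1, 754.9 and 678.7. Both pairs of groups overlapped, and the highest value of all 60 libraries was that of Het fluoxetine male replicate 2. Over both sexes Htr1a was higher by 28.1% (0.36 ± 0.09, limma adjusted p = 0.00167), in 8 of 10 libraries. This call held under all 14 alternatives and without any 1 of the 20 libraries. In females alone the change was 0.41 ± 0.13 (adjusted p = 0.0222), and without fluoxetine replicate 3 or 4 or vehicle replicate 3 or 4 it was 0.35 to 0.38 with an adjusted p of 0.0556 to 0.0962. The call in females was also lost under 4 of 14 alternatives, at 0.34 with 2 tissue scores (adjusted p = 0.117), 0.33 with 4 scores (0.13), 0.41 with only the groups compared (0.052) and 0.40 without the 15 libraries highest in striatal markers (0.182). In males alone it was 0.30 ± 0.13 (adjusted p = 0.0756), and without fluoxetine replicate 3 or 4 it was 0.41 or 0.38 and called (adjusted p = 0.0289 or 0.0375). In WT mice alone the changes were 0.22 ± 0.13 in males (adjusted p = 0.535) and 0.33 ± 0.13 in females (adjusted p = 0.146). The library with the highest olfactory bulb markers, Het vehicle male replicate 1 at a summed 41798, was also the lowest for Htr1a at 393.9. In WT mice the 13 olfactory bulb markers had a median log2 fold change of -0.96 under fluoxetine. Of these, 2 were called lower, beside 8.20% of all genes called in either direction. Without the 15 libraries highest in these markers Htr1a in WT mice differed by 0.28 (limma adjusted p = 0.0901).

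**Figure D2:**
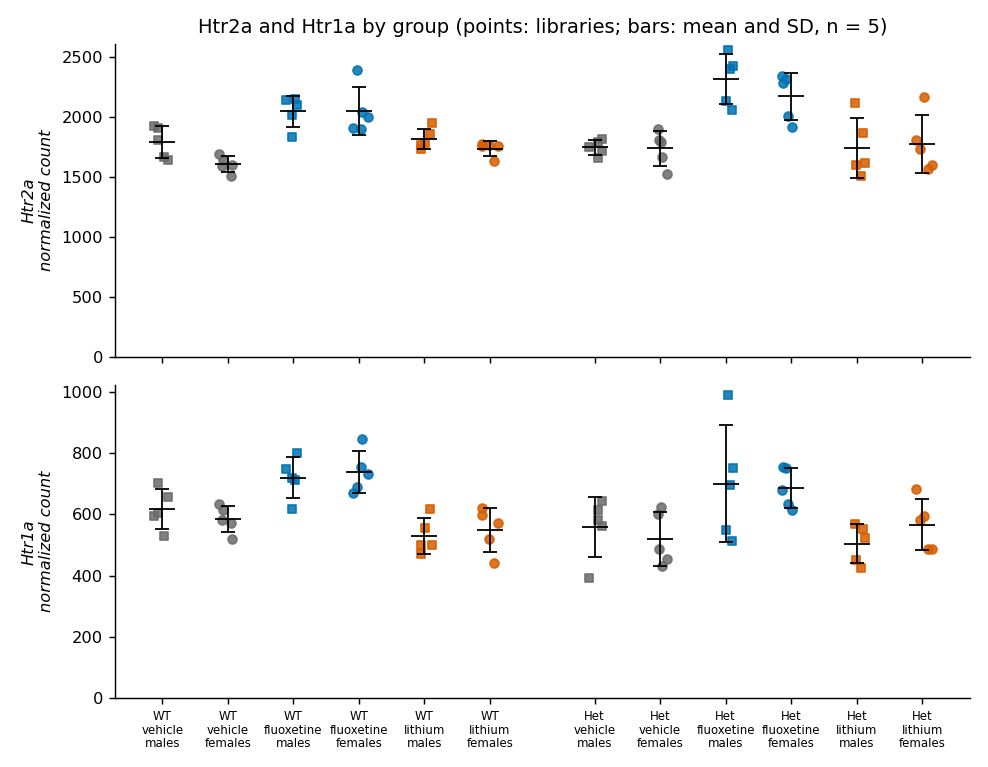
Normalized counts of Htr2a (top) and Htr1a (bottom) in the 12 groups. Squares are males and circles females, 1 point per library, with the mean and SD of 5 libraries. Under fluoxetine (blue) every Het library of Htr2a lay above every Het vehicle library (gray), with means of 2317 and 2176 against 1748 and 1740, while lithium (orange) stood near vehicle.

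Htr5a, a Gi-coupled receptor of neurons, rose with fluoxetine in Het mice from 705.4 ± 63.93 to 809.8 ± 59.4 normalized counts (SD, n = 10 each). Fluoxetine males stood at 734.6, 818.1, 902.1, 849.9 and 783.7 and fluoxetine females at 727.1, 757.0, 880.2, 810.1 and 835.1, and the vehicle mice ran from 578 to 770.4, so the groups overlapped. The change was 0.20 ± 0.06 (limma adjusted p = 0.00835), in 10 of 10 libraries, and it held without any 1 of the 20 libraries. Htr5a was not called without the 15 libraries highest in olfactory bulb markers (0.21, adjusted p = 0.0946) or in striatal markers (0.16, adjusted p = 0.0756). Beside it, 5 of 8 endothelial, 4 of 8 microglial and 2 of 8 astrocyte markers were called lower in the same comparison. Their medians were -0.28, -0.19 and -0.06, and 16.0% of all genes were called lower there. The part of these markers in the Htr5a result was not tested. In females alone Htr5a passed the threshold without fluoxetine replicate 1 (0.25, adjusted p = 0.0445) or vehicle replicate 2 (0.26, 0.0376). In WT mice the change was 0.04 ± 0.06 (adjusted p = 0.758), and the difference between genotypes was 0.16 ± 0.09 (adjusted p = 0.262).

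Htr2c was called higher with fluoxetine in Het females. Het vehicle females stood at 639.0, 1885.0, 489.6, 587.2 and 1155.0 normalized counts, and Het fluoxetine females at 1374.0, 1181.0, 1456.0, 1535.0 and 2600.0. Of the vehicle females 3 were low and 1 lay above 4 of the 5 fluoxetine females, so the groups overlapped. The change was 0.91 ± 0.30 (limma adjusted p = 0.0340), in 5 of 5 libraries. Beside it, 7 of 10 oligodendrocyte markers were called higher in the same comparison, where 15.1% of all genes were called in either direction. The markers had a median log2 fold change of 1.10. Their summed level was 34686 to 164507 in the vehicle and 117051 to 210081 in the fluoxetine females. With scores of the striatal and oligodendrocyte markers as covariates, an alternative added after the data were seen, the Htr2c change was 0.26 (adjusted p = 0.508). The Htr2c call was lost under 6 of 14 alternatives in all, among them DESeq2 (0.77, adjusted p = 0.0654) and edgeR (0.77, 0.0733) on the recovered reads, 4 tissue scores (0.26, 0.507), only the groups compared (0.91, 0.114) and without the 15 libraries highest in striatal markers (0.93, 0.129). Without the 15 highest in olfactory bulb markers the Htr2c change was 1.81 (0.00319), which rests on 2 Het fluoxetine and 3 Het vehicle females. The Htr2c call was also lost without fluoxetine replicate 3 (0.94, adjusted p = 0.0521), 4 (0.92, 0.0524) or 5 (0.73, 0.125), and without vehicle replicate 1 (0.82, 0.0830), 3 (0.72, 0.15) or 4 (0.79, 0.115). In Het males Htr2c changed by -0.09 ± 0.30 (adjusted p = 0.855), and the male minus female difference over both genotypes was -0.64 ± 0.30 (adjusted p = 0.989). Over both sexes Htr2c differed by 0.41 ± 0.22 in Het mice (adjusted p = 0.140), and it was called without fluoxetine male replicate 1 (0.54, adjusted p = 0.0381) or vehicle female replicate 2 (0.56, 0.0327).

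Of the other genes Htr1f had the widest contrast between genotypes. Htr1f stood at 132.5, 140.2, 129.7, 105.0 and 119.7 normalized counts in WT vehicle males and at 58.84, 72.82, 77.42, 90.07 and 89.27 in WT fluoxetine males, and these groups did not overlap. Among all genes 4.64% did not overlap there, and the difference of -0.69 ± 0.21 missed the threshold (limma adjusted p = 0.0799). WT vehicle females stood at 76.15, 121.7, 67.91, 81.79 and 132.7, and WT fluoxetine females at 89.3, 77.9, 76.54, 122.6 and 71.75, which overlapped throughout. In Het mice Htr1f stood at 89.19 ± 21.46 with vehicle and 109.4 ± 30.81 with fluoxetine (SD, n = 10 each). Over both sexes the log2 fold change was -0.40 ± 0.15 in WT (adjusted p = 0.0753) and 0.27 ± 0.15 in Het mice (adjusted p = 0.152). The Htr1f difference between these, 0.67 ± 0.21, had an unadjusted p of 0.00200 and missed the threshold (adjusted p = 0.0626), and 1.70% of all genes passed it.

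The Htr1f difference between genotypes passed the threshold without Het fluoxetine female replicate 4 (0.78, limma adjusted p = 0.0276), Het fluoxetine male replicate 1 (0.75, 0.0218), Het vehicle female replicate 2 (0.71, 0.0390) or 5 (0.70, 0.0497), WT fluoxetine female replicate 4 (0.73, 0.0283), WT fluoxetine male replicate 5 (0.70, 0.0437) or WT vehicle female replicate 1 (0.71, 0.0486). With DESeq2 on the recovered reads Htr1f gave 0.71 (adjusted p = 0.0263), and over all alternatives it stayed positive. Without WT fluoxetine female replicate 4 or WT vehicle female replicate 3, the Htr1f change in WT mice was -0.46 and called (adjusted p = 0.0422 or 0.0457). Without Het fluoxetine female replicate 4 the Htr1f change in Het mice was 0.38 and called (adjusted p = 0.0294).

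The remaining 5 genes were called in none of the fluoxetine comparisons. Htr3a differed by 0.19 ± 0.09 in WT (limma adjusted p = 0.181) and 0.14 ± 0.09 in Het mice (adjusted p = 0.236). In WT mice it was called without fluoxetine male replicate 3 (0.26, adjusted p = 0.0358), which stood at 145.5 beside 195.1 to 283.7 in the other 4. Htr1b differed by 0.23 ± 0.10 in WT (adjusted p = 0.171) and 0.06 ± 0.10 in Het mice (adjusted p = 0.692). For the Gs-coupled genes the WT and Het values were -0.12 ± 0.13 and 0.05 ± 0.13 for Htr6, 0.07 ± 0.09 and 0.16 ± 0.09 for Htr7, and 0.36 ± 0.28 and 0.28 ± 0.28 for Htr4. Htr4 had 95% intervals of -0.20 to 0.93 and -0.28 to 0.85, the widest of the 10 genes.

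**Figure D3:**
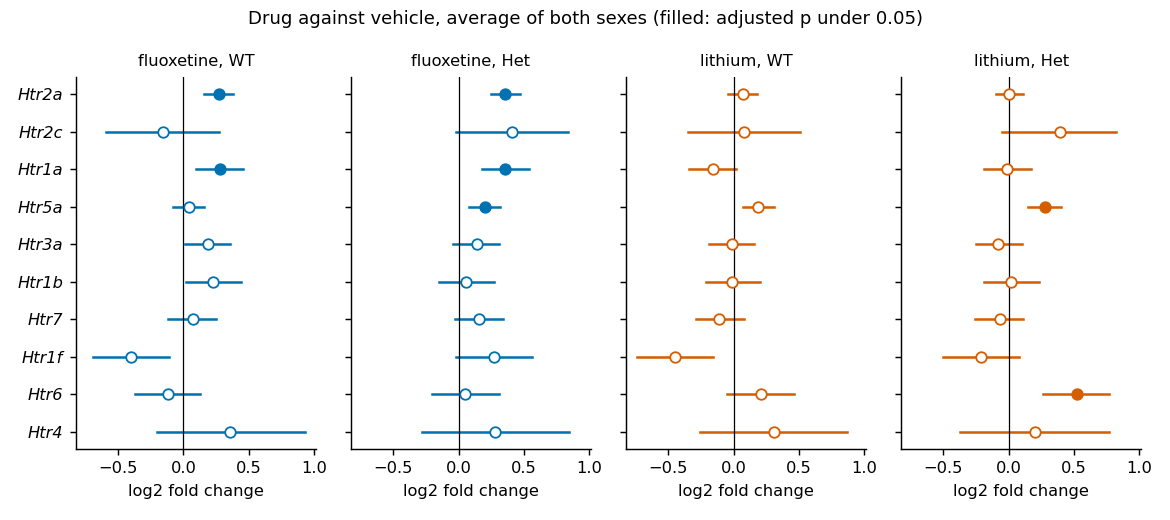
Log2 fold change of each drug against vehicle (average of both sexes) with its 95% interval for the 10 genes, ordered by level. Filled points passed an adjusted p of 0.05. Under fluoxetine Htr2a (0.27 and 0.36) and Htr1a (0.28 and 0.36) passed in WT and Het mice, and under lithium Htr5a (0.28) and Htr6 (0.52) passed in Het mice.

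Lithium was compared with the same vehicle libraries as fluoxetine, so the 2 sets of changes are not independent. Htr6 and Htr5a rose in Het mice, and none of the 10 genes was called in WT mice. In Het mice 2 of 10 genes were called, both higher, against 9.14% of all genes called in either direction and 5.30% called higher. In WT mice 0 of 10 were called (limma), against 2.97% of all genes. At an unadjusted p under 0.05 the WT count was 2, Htr5a and Htr1f, beside 17.7% of all genes. DESeq2 on the recovered reads called 2 and the edgeR quasi-likelihood test 0. The median log2 fold change of the 10 genes was 0.03 in WT and 0.01 in Het mice, beside 0.00 over all genes in each.

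Htr6, a Gs-coupled receptor found mainly in the brain, stood at 48.82, 60.24, 71.86, 81.66 and 80.13 normalized counts in Het vehicle males and at 102.1, 110.7, 148.3, 89.24 and 115.3 in Het lithium males. Het vehicle females stood at 84.18, 108.9, 80.94, 98.89 and 86.01, and Het lithium females at 129.7, 107.6, 114.8, 116.3 and 101.1. The male groups did not overlap, and 2 lithium females lay below the highest vehicle female. Over both sexes Htr6 was higher by 43.0% (0.52 ± 0.13, limma adjusted p = 0.00684), in 10 of 10 libraries and without any 1 of the 20 left out. In males alone the change was 0.72 ± 0.18 (adjusted p = 0.0233), the 1 call among the 10 genes beside 2.0% of all genes, and 4.35% of all genes did not overlap between those groups. In females alone it was 0.31 ± 0.18 (adjusted p = 0.436), with 0.629% of all genes called, and the sexes over both genotypes differed by 0.24 ± 0.18 (adjusted p = 0.890).

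The Htr6 call in Het males was lost without lithium replicate 3 (0.62, limma adjusted p = 0.0800) or 5 (0.71, 0.0585) and without vehicle replicate 1 (0.61, 0.124) or 2 (0.68, 0.0647). This male call was kept under 12 of 14 alternatives. It was lost with only the groups compared and without the 15 libraries highest in olfactory bulb markers, with an adjusted p of up to 0.635. The summed level of olfactory bulb markers was 5362 to 41798 in the vehicle and 5835 to 15096 in the lithium males, with a median log2 fold change of -0.63 and none of the 13 called (limma). Vehicle replicate 1, which had the highest summed level of all libraries, had the lowest Htr6 value of all. Without the 15 libraries highest in these markers, an alternative added after the data were seen that leaves 2 of the 5 Het vehicle males, Htr6 over both sexes differed by 0.48 (adjusted p = 0.0879). With 4 tissue scores as covariates Htr6 over both sexes differed by 0.41 and stayed called (adjusted p = 0.0309).

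Htr6 in WT mice stood at 109.4, 106.8, 87.23, 103.0 and 63.76 in vehicle males and at 114.5, 96.6, 120.9, 124.7 and 94.45 in lithium males. WT vehicle females stood at 84.22, 93.91, 95.28, 62.74 and 108.8, and WT lithium females at 116.2, 109.1, 76.9, 115.0 and 83.02. The groups overlapped in both sexes. The WT change was 0.21 ± 0.13 (limma adjusted p = 0.403). The change in Het minus that in WT mice was 0.31 ± 0.18 (adjusted p = 0.990, 95% interval -0.05 to 0.67), so Htr6 was not shown to respond differently in the 2 genotypes.

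Htr5a stood at 689.0, 702.8, 765.9, 667.9 and 770.4 normalized counts in Het vehicle males and at 806.3, 753.2, 889.9, 943.8 and 996.6 in Het lithium males. Het vehicle females stood at 759.6, 769.5, 642.6, 578.0 and 708.4, and Het lithium females at 920.2, 824.5, 810.7, 687.6 and 923.1. Of the lithium mice 1 male and 1 female lay within the range of the vehicle mice of their sex. Over both sexes Htr5a was higher by 21.0% (0.28 ± 0.06, limma adjusted p = 0.00306), in 9 of 10 libraries and without any 1 of the 20 left out. In WT mice the mean was 712.4 ± 53.96 with vehicle and 812.1 ± 72.38 with lithium (SD, n = 10 each), a difference of 0.19 ± 0.06 (adjusted p = 0.0758). The WT difference was called without lithium female replicate 3 (0.21, adjusted p = 0.0479). In Het males alone Htr5a differed by 0.28 ± 0.09 (adjusted p = 0.0628), and it was called without lithium replicate 2 (0.34, 0.0291) or vehicle replicate 3 (0.31, 0.0349). Without the 15 libraries highest in olfactory bulb markers the Het difference over both sexes was 0.28 (adjusted p = 0.0541). The Het minus WT difference for Htr5a was 0.09 ± 0.09 (adjusted p = 0.990).

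Within groups, Htr5a ran against the scores of astrocyte (r = -0.81), microglial (r = -0.69) and endothelial markers (r = -0.69) over the 60 libraries, which share their dissection and depth. Under lithium in Het mice 2 of 8 markers of each of these 3 lists were called lower, with medians of -0.14, -0.20 and -0.19. Among all genes 9.14% were called in either direction there. The summed endothelial level was 6808 to 10408 in Het vehicle and 6898 to 8060 in Het lithium females, and 7455 to 8487 and 6795 to 7993 in the males. For astrocytes it was 53328 to 72738 and 50410 to 61474 in the females and 55166 to 60379 and 51934 to 56833 in the males. For microglia it was 9425 to 13037 and 8355 to 11144 in the females and 10352 to 11651 and 7316 to 10397 in the males. Their part in the Htr5a result was not tested.

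Htr1f in WT males was low under lithium as well, at 69.53, 66.72, 50.72, 61.36 and 86.39 normalized counts, against the same vehicle males at 105 to 140.2. The groups did not overlap, which was so for 3.55% of all genes. The difference was -0.91 ± 0.21 (limma adjusted p = 0.0563), where 0.0786% of all genes were called. In WT females the lithium libraries stood at 80.89 to 119.8 and the difference was 0.01 ± 0.21 (adjusted p = 0.994), where 0.118% of all genes were called. The male minus female difference over both genotypes was -0.49 ± 0.21 (unadjusted p = 0.0210, adjusted p = 0.877). In Het mice Htr1f differed by -0.21 ± 0.15 (adjusted p = 0.381), and over both sexes in WT mice by -0.45 ± 0.15 (adjusted p = 0.0768). The WT difference passed the threshold without lithium male replicate 5 (-0.50, adjusted p = 0.0493). The WT vehicle males had the highest mean of the 12 groups, 125.4 ± 13.57 (SD, n = 5), and both drug contrasts in WT males rest on them.

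**Figure D4:**
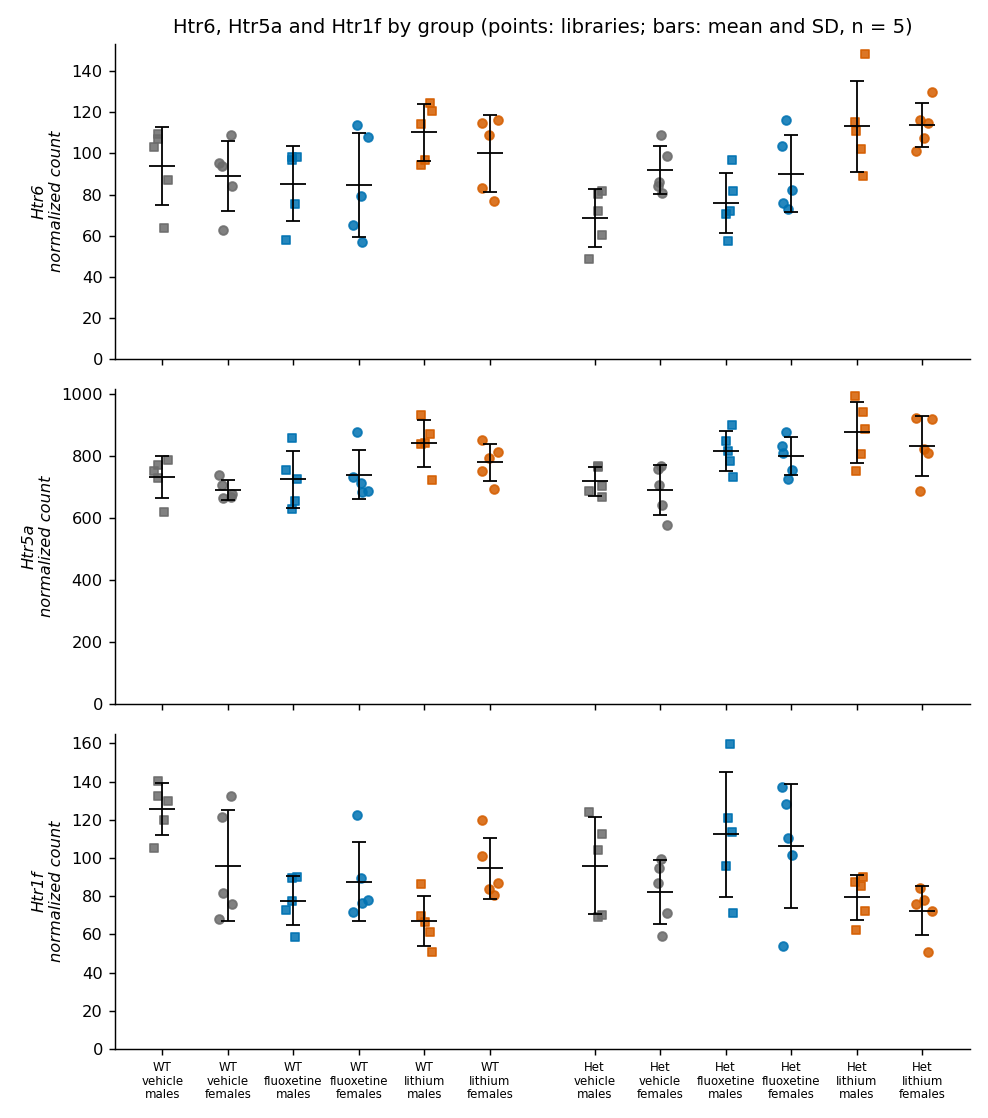
Normalized counts of Htr6 (top), Htr5a (middle) and Htr1f (bottom) in the 12 groups, 1 point per library with the mean and SD of 5 libraries. Squares are males and circles females. The Het lithium means of Htr6 (113.1 and 113.9) lie above the Het vehicle means (68.54 and 91.78), with overlap between single libraries of the 2 treatments, and WT vehicle males have the highest Htr1f mean at 125.4.

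Htr2a was not called under lithium, with means of 1779 ± 82.5 in WT and 1760 ± 231.9 in Het mice (SD, n = 10 each) beside 1700 ± 137.9 and 1744 ± 105.1 with vehicle. Its log2 fold changes were 0.07 ± 0.05 (limma adjusted p = 0.542, 95% interval -0.04 to 0.18) and 0.00 ± 0.05 (adjusted p = 0.967, -0.10 to 0.11). Htr1a differed by -0.16 ± 0.09 in WT (adjusted p = 0.352) and -0.01 ± 0.09 in Het mice (adjusted p = 0.977). Htr2c stood at 1426 to 1478 in WT lithium males, the narrowest range of any group, and differed by 0.08 ± 0.22 in WT and 0.39 ± 0.22 in Het mice (adjusted p = 0.892 and 0.257). In Het females its lithium difference was 0.75 ± 0.30 (adjusted p = 0.245), against the same low vehicle females as under fluoxetine. Htr3a, Htr1b, Htr7 and Htr4 differed by -0.11 to 0.31 over both sexes in either genotype, with adjusted p from 0.590 to 0.988.

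The 2 drugs were also compared directly, which uses no vehicle library. With fluoxetine Htr1a was higher than with lithium by 0.44 ± 0.09 in WT (limma adjusted p = 6.92e-04) and 0.36 ± 0.09 in Het mice (adjusted p = 0.00194), and Htr2a by 0.20 ± 0.05 (adjusted p = 0.0109) and 0.36 ± 0.05 (adjusted p = 1.12e-06). These were the 2 of 10 genes called in WT mice, where 7.74% of all genes were called. In Het mice 4 of 10 were called, against 25.0% of all genes, as Htr1f was also higher with fluoxetine (0.48 ± 0.15, adjusted p = 0.0113) and Htr6 lower (-0.46 ± 0.13, adjusted p = 0.00481). In WT mice the same difference was -0.33 ± 0.13 for Htr6 (adjusted p = 0.102) and 0.05 ± 0.15 for Htr1f (adjusted p = 0.894). All 6 calls held without any 1 library. In Het mice the Htr1f call was lost without the 15 libraries highest in olfactory bulb markers (0.31, adjusted p = 0.233) or in striatal markers (0.29, 0.29), and the Htr1a call without the latter (0.29, 0.103). In WT mice Htr3a was also called without fluoxetine male replicate 3 (0.27, adjusted p = 0.0295). In Het mice Htr3a was called without fluoxetine female replicate 1 (0.24, adjusted p = 0.0391) or lithium male replicate 2 (0.24, 0.0485). Htr7 was called there without fluoxetine female replicate 3 (0.25, 0.0493), fluoxetine male replicate 2 (0.27, 0.0309) or lithium female replicate 2 or 4 (0.26 and 0.0332 for each), and its difference with all libraries was 0.23 ± 0.09 (adjusted p = 0.0549).

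The N2373K genotype was compared within each treatment, and over both sexes 0 of the 10 genes were called under any treatment (limma, and the edgeR quasi-likelihood test on recovered reads). Under vehicle 0.0562% of all genes were called, under fluoxetine 7.33% and under lithium 0.0393%. Under vehicle 2 of the 10 had an unadjusted p under 0.05, beside 7.79% of all genes, Htr1f (-0.31 ± 0.15, adjusted p = 0.628) and Htr2c (-0.45 ± 0.22, adjusted p = 0.628). Htr1a differed by -0.17 ± 0.09 (adjusted p = 0.659, 95% interval -0.35 to 0.01) and Htr2a by 0.04 ± 0.05 (adjusted p = 0.901, -0.07 to 0.15). Under fluoxetine 3 had an unadjusted p under 0.05, beside 24.9% of all genes, namely Htr1f (0.37 ± 0.15), Htr2a (0.13 ± 0.05) and Htr5a (0.15 ± 0.06), with adjusted p of 0.106, 0.119 and 0.118.

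Leaving out 1 library brought some of these 3 past the threshold under fluoxetine. Without WT fluoxetine female replicate 4, the highest library of its group for Htr2a at 2398, all 3 were called (limma), Htr1f at 0.43 (adjusted p = 0.0479), Htr2a at 0.16 (adjusted p = 0.0421) and Htr5a at 0.18 (adjusted p = 0.0441). Htr1f was also called without Het fluoxetine female replicate 4 (0.48, adjusted p = 0.0252) or male replicate 1 (0.44, 0.0355), and Htr5a without WT fluoxetine male replicate 5 (0.18, 0.0460). Under lithium the 10 differences lay between -0.14 and 0.11, with adjusted p from 0.864 to 0.988 and 0 at an unadjusted p under 0.05, beside 6.46% of all genes. DESeq2 on the recovered reads called 1 of the 10 over both sexes under fluoxetine, Htr1f (0.41, adjusted p = 0.0494).

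No difference between males and females was called in the 10 genes over all treatments and genotypes (limma, edgeR and DESeq2), and 0.140% of all genes were called. The difference furthest from 0 was -0.14 ± 0.16 for Htr4, and the lowest unadjusted p was 0.0747, for Htr7 (-0.10 ± 0.05). No receptor gene was called in the interactions of sex with fluoxetine or lithium or of genotype with lithium, and in each 0 of all genes were called. At an unadjusted p under 0.05, which 4.60% of all genes reached for sex by fluoxetine, 5.50% for sex by lithium and 3.45% for genotype by lithium, these held Htr2c (-0.64 ± 0.30, adjusted p = 0.989) and Htr7 (0.27 ± 0.13, adjusted p = 0.989) for sex by fluoxetine and Htr1f and Htr7 (0.29 ± 0.13, adjusted p = 0.877) for sex by lithium.

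The genes differed in how much they varied between mice of a group. The SD within groups on the log2 scale was 0.12 for Htr2a and 0.14 for Htr5a, at percentiles 33.2 and 40.2 of all genes tested. It was 0.20 for Htr3a, 0.21 for Htr1a and Htr7, 0.24 for Htr1b, 0.29 for Htr6 and 0.33 for Htr1f. Htr2c at 0.50 and Htr4 at 0.65 were the most variable, at percentiles 86.0 and 91.9. Htr4 and Htr1b were high in the libraries highest in striatal markers. Het fluoxetine female replicate 5 had the highest summed striatal level, 29450, and the highest value of all libraries for Htr4 (79.67), Htr1b (567.3) and Htr2c (2600). The next 3 libraries by striatal level, WT fluoxetine male replicate 3, Het lithium female replicate 4 and WT lithium female replicate 4, stood at 61.56, 73.17 and 47.47 for Htr4, beside a median of 21.94 in WT vehicle mice. These 4 libraries held the 4 highest Htr4 values of all 60.

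Over the 60 libraries, after the group means were removed, the striatal score had a correlation of 0.76 with Htr4, 0.68 with Htr1b and 0.55 with Htr2c, and that of oligodendrocyte markers 0.76 with Htr2c. The 3 libraries lowest in oligodendrocyte markers were Het lithium female replicate 2, Het vehicle female replicate 3 and Het fluoxetine male replicate 1, with summed levels of 34455, 34686 and 38037. Their Htr2c values of 621, 489.6 and 572.8 were among the 4 lowest of all libraries. Choroid plexus is a tissue known for its very high Htr2c expression. The library highest in its markers, WT vehicle male replicate 2 with a summed 15889 and the transthyretin gene Ttr at 14344, stood at 1290 for Htr2c, below the WT vehicle mean of 1441. The libraries ranked 2 to 4 were WT fluoxetine female replicate 3, Het lithium female replicate 3 and Het vehicle female replicate 1. Their Htr2c values were 2011, 1881 and 639. The choroid plexus score had a correlation of -0.03 with Htr2c within groups. The correlations are descriptions of libraries that share a dissection, and the part of tissue makeup in them was not tested.

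**Figure D5:**
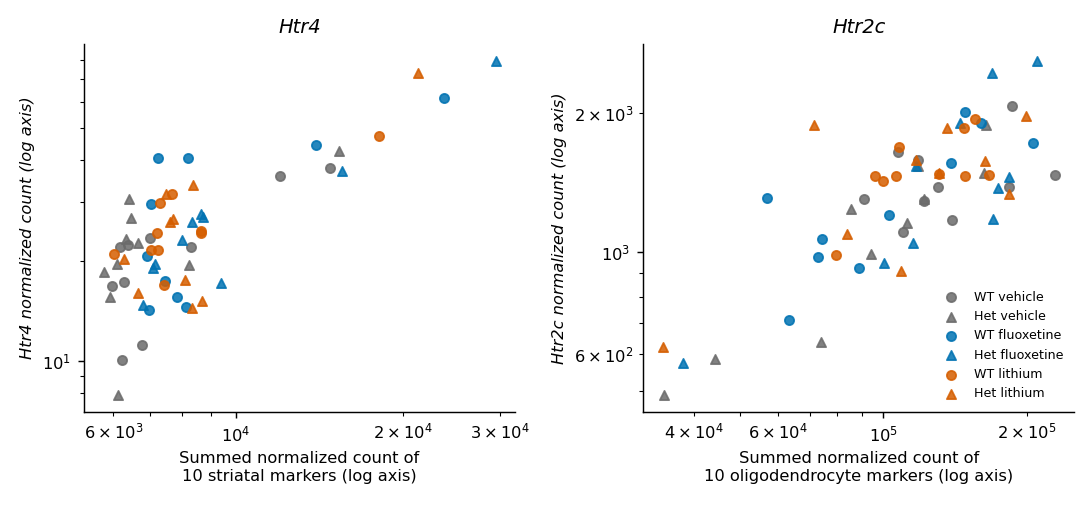
Left, Htr4 against the summed normalized count of 10 striatal markers. Right, Htr2c against that of 10 oligodendrocyte markers, 1 point per library on log axes, with color for treatment and shape for genotype. The highest Htr4 value (79.67) lies at the highest striatal level (29450), and Htr2c values of 489.6 to 621 lie at the 3 lowest oligodendrocyte levels.

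Among themselves the genes moved together only in part. The closest pair within groups was Htr1a and Htr2a (r = 0.56, 60 libraries), followed by Htr2c and Htr4 (0.53) and Htr1b and Htr4 (0.47). Htr3a ran against Htr4 (-0.45) and Htr2c (-0.41). Among the 13696 genes compared, the gene most like each one by this measure was Lmo3 for Htr2c (0.95), Sv2b for Htr5a (0.87), Drd1 for Htr4 (0.79), Cpeb3 for Htr1f (0.76) and Slc5a7 for Htr1b (0.71). It was Epha7 for Htr1a (0.69), Ano3 for Htr2a (0.68), Msra for Htr3a (0.66), Spock2 for Htr6 (0.62) and Ppa2 for Htr7 (0.54). Drd1 is the D1 dopamine receptor of striatal neurons and Slc5a7 the choline transporter of cholinergic neurons. Vip, a marker of the interneurons that are known to carry the Htr3a channel, was second for Htr3a (0.64). The score of all 11 interneuron markers, Vip among them, had a correlation of only 0.12 with Htr3a. The LIM domain gene Lmo3 ranged from 1287 to 6060 normalized counts and Htr2c from 489.6 to 2600.

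Other genes of the serotonin system were counted from lists. The 2 further receptor genes tested, Htr1d (8.407 to 113.3 normalized counts) and Htr5b (9.566 to 70.52), were called in no drug comparison over both sexes. Of 8 genes of serotonin synthesis, uptake and breakdown, 0 were called in WT mice under fluoxetine, while in Het mice 2 were higher and 1 lower, beside 8.20% and 32.9% of all genes called in the 2 genotypes. Ddc, which makes serotonin and dopamine from their precursors, stood at 115.1 ± 24.33 with vehicle and 208 ± 58.07 with fluoxetine in Het mice (SD, n = 10 each), a change of 0.83 ± 0.17 (limma adjusted p = 2.24e-04). Maob, which breaks down monoamines, rose by 0.21 ± 0.06 (limma adjusted p = 0.00851). The Maob call was lost without the 15 libraries highest in olfactory bulb or in striatal markers, with an adjusted p of up to 0.13. Slc29a4, a low-affinity monoamine transporter, fell by 0.63 on the log2 scale (limma adjusted p = 2.01e-04), from 477.1 ± 75.76 to 314.5 ± 92.33. Slc6a4, the serotonin transporter that fluoxetine binds, was not analysed here, nor were Htr2b and Htr3b.

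In WT mice Ddc changed by -0.09 ± 0.17 (limma adjusted p = 0.800), and the Ddc difference between genotypes was 0.91 ± 0.24 (adjusted p = 0.0401). Ddc is also expressed by dopamine neurons of the olfactory bulb. Beside it, the median log2 fold change of the 13 olfactory bulb markers was -0.96 in WT and -0.15 in Het mice. In WT mice 0 were called higher and 2 lower, and in Het mice 0 were called, beside 8.20% and 32.9% of all genes. The summed level of these markers was 4505 to 9584 in the 10 WT fluoxetine libraries and 6628 to 24545 in the 10 WT vehicle libraries. With 4 tissue scores as covariates the Ddc difference was 0.60 (adjusted p = 0.166). Over all 14 alternatives the Ddc call on the difference between genotypes was kept under 9, with an adjusted p of up to 0.647. The same call was lost without any 1 of 20 of the 40 libraries, with values of 0.82 to 0.93 and adjusted p up to 0.0742.

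Of the signaling genes below the receptors, 6 of 13 genes of the Gs pathway were called higher in Het mice under fluoxetine and 0 lower, against 16.9% of all genes called higher and 16.0% lower. The adenylyl cyclase gene Adcy9 rose by 0.44 ± 0.08 (limma adjusted p = 3.05e-05) and the phosphodiesterase gene Pde4b by 0.19 ± 0.03 (adjusted p = 4.83e-05). The list median was 0.08, beside 0.01 over all genes. Of the 6, the calls of Gnas (0.00, adjusted p = 0.956), Prkaca (0.06, 0.125) and Prkacb (0.06, 0.205) were lost under quantile normalization, and those of Gnas (0.05, 0.162) and Prkaca (0.06, 0.117) also on rescaling to the same total, while Adcy9 and Pde4b held under all 14 alternatives. Ppp1r1b, which encodes the striatal phosphoprotein DARPP-32, was among the 6 and is also one of the 10 striatal markers, of which 2 were called higher. Of 10 genes of the Gi pathway the potassium channel gene Kcnj6 rose and the G protein genes Gnai2, Gnai3 and Gnaz fell, at -0.22 to 0.28. All of these Gi calls were lost without the 15 libraries highest in striatal markers. Over the 14 alternatives their adjusted p reached 0.193, 0.0947, 0.102 and 0.0698 (limma). Of 9 genes of the Gq pathway Gnaq, Plcb1 and Plcb4 were called higher and Plcb3 lower, at -0.28 to 0.16. The Plcb3 call was lost without the 15 libraries highest in striatal markers (limma adjusted p = 0.0701). The calls of Gnaq (0.02, adjusted p = 0.487), Plcb1 (0.04, 0.358) and Plcb4 (0.13, 0.074) were lost under quantile normalization, and they were kept on leaving out 8, 11 and 10 of the 20 libraries, 1 at a time. Of 11 partners of the receptors S100a10, an adaptor protein known to bind Htr1b and Htr4, and the kinase gene Cdk5 (0.18 ± 0.04, adjusted p = 7.43e-04) rose. The call of S100a10 was kept on leaving out 9 of the 20 libraries, 1 at a time. Grk5, Dlg4, whose call was kept for 13 of the 20, and the caveolin gene Cav1 (-0.45 ± 0.11, limma adjusted p = 0.00112) fell. Cav1 is abundant in endothelium, of whose 8 markers 5 were called lower in the same comparison. The Cdk5 and Grk5 calls were lost without the 15 libraries highest in olfactory bulb markers (adjusted p = 0.0611 and 0.0637, limma).

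In WT mice under fluoxetine 2 of these signaling genes were called, both lower, beside 8.20% of all genes called. They were the Gi subunit gene Gnai3 (-0.31 ± 0.07, limma adjusted p = 0.00119) and the adenylyl cyclase gene Adcy8 (-0.36 ± 0.12, adjusted p = 0.0477). The Adcy8 call was lost without any 1 of 14 of the 20 libraries, at -0.40 to -0.32 over all of them with an adjusted p of up to 0.105. Under lithium none was called in WT mice, beside 2.97% of all genes. In Het mice Adcy9 (0.28 ± 0.08, limma adjusted p = 0.0210) and Cdk5 (0.15 ± 0.04, adjusted p = 0.0181) rose and Cav1 (-0.39 ± 0.11, adjusted p = 0.0179) fell. Among all genes 9.14% were called in Het mice under lithium. Without Het vehicle female replicate 3 the Adcy9 and Cav1 calls under lithium were lost, with adjusted p of 0.053 and 0.0524. With 4 tissue scores as covariates the Adcy9, Cdk5 and Cav1 calls under lithium were all lost, with adjusted p of 0.0678 to 0.0758.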

How the data were processed

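The deposited values are the signal per gene that the authors made, normalized counts in which the reads of a library are divided by 1 size factor. Tools listed per the submitters' processing notes were R 3.6.0, Salmon 0.11.2 and DESeq2 1.19.11, with the build GRCm38, without their order or settings. At a tolerance of 0.001, 100.0% of values came out as whole reads, with size factors of 0.818 to 1.072. The test covered 17807 of 18088 genes, those reaching 10 in 5 or more libraries, and 18077 gene IDs were named from the annotation. The log2(value + 1) was fitted with limma 3.58.1 (R 4.3.3) with 1 mean per group over all 60 libraries, two-sided, with Benjamini-Hochberg adjustment over all genes in each comparison. A fold change on this scale understates the change of low genes. The fit was tested on simulated data. Alternatives were edgeR 4.0.16 and DESeq2 1.42.0 on recovered reads, other pseudocounts, filters and scalings, library weights, tissue scores as covariates and left-out libraries. The receptor genes and all lists were chosen with earlier results of these data known. All 10 receptor genes were tested in every comparison and are named for each drug against vehicle over both sexes. In the other comparisons only some are named, mainly those called or with a low p. Called genes of the other lists were named by smallest p, at most 6 per comparison, and those named beyond that were chosen after their values were seen.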

Additional observations from a re-analysis of the deposited data

Results flagged for a closer look

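Of 120 sets of 5 libraries (10 receptor genes in 12 groups), 9 held a library far from the other 4, and chance gives about 1 in 20 such sets. In WT fluoxetine female replicate 4, Htr2a stood at 2398 normalized counts beside a next value of 2040, and Htr5a at 878.4 beside 734. In Het fluoxetine female replicate 5, the library highest in striatal markers, Htr2c stood at 2600 beside 1535 and Htr4 at 79.67 beside 26.14. Htr1b stood at 436.8 beside 339.7 in WT lithium female replicate 4, and Htr3a at 241.9 beside 191.2 in WT lithium male replicate 5. Htr4 stood at 35.94 beside 21.96 in WT vehicle female replicate 2. The low libraries were WT lithium female replicate 3 for Htr2a, at 1631 beside 1757, and WT vehicle female replicate 4 for Htr7, at 156.9 beside 208.8.

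The response of Ddc to fluoxetine differed between the genotypes by 0.91 on the log2 scale in the test of that difference (limma adjusted p = 0.0401). This call was kept under only 9 of 14 alternatives, with values of 0.60 to 1.05 and an adjusted p of up to 0.647. It was kept on leaving out 20 of the 40 libraries, 1 at a time.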

How the results depend on the processing

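Counts of the 10 receptor genes called moved as follows, and the cause was not tested. With library quality weights they were 1 for Het against WT under fluoxetine, 4 for fluoxetine against lithium in WT mice, 2 each for fluoxetine in WT males, WT females and genotype by fluoxetine, 2 each for lithium in Het males and over both sexes in WT mice, and 1 for lithium in WT males. DESeq2 gave 1 for Het against WT under fluoxetine, 1 each for fluoxetine in WT males and genotype by fluoxetine, 2 each for lithium in Het males and over both sexes in WT mice, and 1 for lithium in WT males. With only the groups compared, the counts were 1 each for fluoxetine in Het females and WT males, 2 for fluoxetine in WT females, 0 for lithium in Het males, 1 for lithium in WT males and 2 over both sexes in WT mice. With 4 tissue scores they were 1 each for fluoxetine in Het females, fluoxetine over both sexes in WT mice, lithium in WT males and lithium over both sexes in WT mice. With 2 scores they were 1 each for fluoxetine in Het females and lithium in WT males, and 2 for lithium in Het males. Rescaling to the same total gave 1 for fluoxetine over both sexes in WT mice.

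Without the 15 libraries highest in olfactory bulb markers the counts were 0 for fluoxetine in Het males and WT females, 1 over both sexes in WT mice, 1 for lithium in Het females and 0 in Het males and over both sexes in Het mice. Without the 15 highest in striatal markers they were 0 for fluoxetine in Het females and WT females, 1 over both sexes in WT mice, and 2 for lithium in Het males. These settings and the 2 scores were chosen after the data were seen.

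Leaving out 1 library gave 1 to 4 calls for fluoxetine in Het females, 1 to 2 in Het males, 3 to 4 over both sexes in Het mice, 1 to 1 in WT females, 0 to 0 in WT males and 1 to 3 over both sexes in WT mice. It gave 0 to 2 for lithium in Het males, 2 to 2 over both sexes in Het mice, 0 to 1 over both sexes in WT mice, 0 to 1 for genotype by fluoxetine and 0 to 3 for Het against WT under fluoxetine. For fluoxetine against lithium it gave 4 to 5 in Het and 2 to 3 in WT mice. The count was 0 for all other comparisons and libraries left out.

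Libraries that share only a replicate number had a median correlation of 0.001 (-0.276 to 0.295), beside -0.002 (-0.376 to 0.353) for other numbers. Of 60 libraries 18 were closest to their own number, and with 5 numbers some match by chance. Whether 18 is more than chance gives was not tested. The median correlations showed no pairing by number over all libraries, and these values cannot exclude it within some groups. With a replicate block the count was 1 for genotype by fluoxetine and 1 for lithium in WT males, against 0 without it. No value that passed the threshold changed direction in any alternative. Reads of 24.05 to 31.65 M leave Htr4, at a mean of 21.86 in WT vehicle mice, the least precise of the 10.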
